A study of Mus musculus with 9 samples.

Results

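Glypicans and syndecans are the main families of cell-surface proteoglycans that carry heparan sulfate, a long sulfated sugar chain. Expression of 10 genes was followed in MEFs, the fibroblasts that grow out of minced mouse embryos. The genes are the glypicans Gpc1, Gpc2, Gpc3, Gpc4 and Gpc6, the syndecans Sdc1, Sdc2, Sdc3 and Sdc4, and Hpse, the gene for heparanase. The 10 are among 19937 genes with a named probe set, and were selected on these expression values: the families were taken by gene symbol after Gpc3 was seen to have the strongest rise common to both mutants. All 10 had 1 probe set with a gene symbol of its own.

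The MEFs had 1 of 3 genotypes of Cdkn1b, which encodes p27, an inhibitor of the cell cycle. These were wild type (WT below), p27CK (CK below) and p27KO (KO below). Each genotype was measured on 3 Affymetrix arrays, 9 in all, and every culture had been grown in 10% fetal bovine serum and then kept without serum for 72 h, which makes fibroblasts quiescent. Only the name p27CK is in the labels, and the literature uses it for a p27 that has lost binding to cyclins and their kinases. The extraction text, the same for every sample, speaks of delta51 animals beside wild-type ones without tying that name to KO or CK. Separate cultures or embryos are not stated for the 3 arrays within a genotype, so each p-value reflects array-to-array spread that may be technical, and genotype and culture cannot be told apart.

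Values are log2 expression, so a difference of 1 is a doubling of the measured value. Arrays of one genotype correlated at 0.995 or more over all probe sets. Cdkn1b itself averaged 11.46 ± 0.04 for WT, 11.10 ± 0.09 for CK and 7.38 ± 0.11 for KO (SD, n = 3). Group means of the 8 fibroblast markers were at or above 7.24, except for Thy1 in KO. This value of 7.24, the 40th percentile of gene means, served as the filter on dim genes. Thy1 averaged 11.73 in WT, 11.69 in CK and 7.14 in KO. The fibroblast list averaged 12.92 to 12.99 on the WT arrays, 12.73 to 12.80 in CK and 11.88 to 11.92 in KO. Markers of chondrocytes, the cells of cartilage, averaged 8.48 to 8.65 on the WT arrays, 7.54 to 7.62 in CK and 11.04 to 11.41 in KO, with 5, 3 and 8 of 8 genes at or above 7.24. Most of the gap between WT and CK in this average came from Cnmd (13.33 in WT and 7.30 in CK). Without Cnmd the average was 7.78 to 7.98 on the WT arrays, 7.60 to 7.67 in CK and 10.64 to 11.06 in KO. Between WT and CK 3 of the 8 means differed by under 0.1, and Acan was higher in CK (6.64 against 6.42). In bulk RNA a change in the number of cells of a type and a change of RNA per cell cannot be told apart.

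Heparan sulfate chains bind growth factors, morphogens and matrix proteins and so hold them at the cell surface. Glypicans are fixed to the outer membrane by a glycosylphosphatidylinositol (GPI) lipid anchor, while syndecans span the membrane and have a short cytoplasmic tail that connects to the cytoskeleton. Glypican-3 limits hedgehog signalling, and its loss causes overgrowth in people and mice. Heparanase is the enzyme that cuts heparan sulfate chains.

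Gpc3 was dim in WT and bright in both mutants. It read 6.72, 6.53 and 6.62 on the WT arrays, 12.25, 12.14 and 12.04 in CK, and 12.66, 12.70 and 12.72 in KO. All WT arrays lay below 7.24 and all mutant arrays above 12. The difference from WT was 6.07 in KO (SE 0.07) and 5.52 in CK (SE 0.07), which are 67.0-fold and 45.9-fold differences of the measured values. Both comparisons share the WT arrays, and since Gpc3 was chosen for these rises they are given as a description with no test. Whether WT signal exceeds background is unknown, so these folds describe signals and not RNA. By the smaller of the rises in both mutants, the next genes after Gpc3 were Dhrs9 (3.90) and Adgrg6 (3.85). The chondrocyte markers averaged higher in KO and lower in CK than in WT, with and without Cnmd. Their part in the Gpc3 values was not tested. Between the mutants Gpc3 was lower in CK than in KO by a log2 difference of -0.55 (95% interval -0.70 to -0.39, limma adjusted p = 4.61e-05), with no overlap of arrays. The choice used the rises in both mutants, so this difference is not independent of it.

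**Figure D1:**
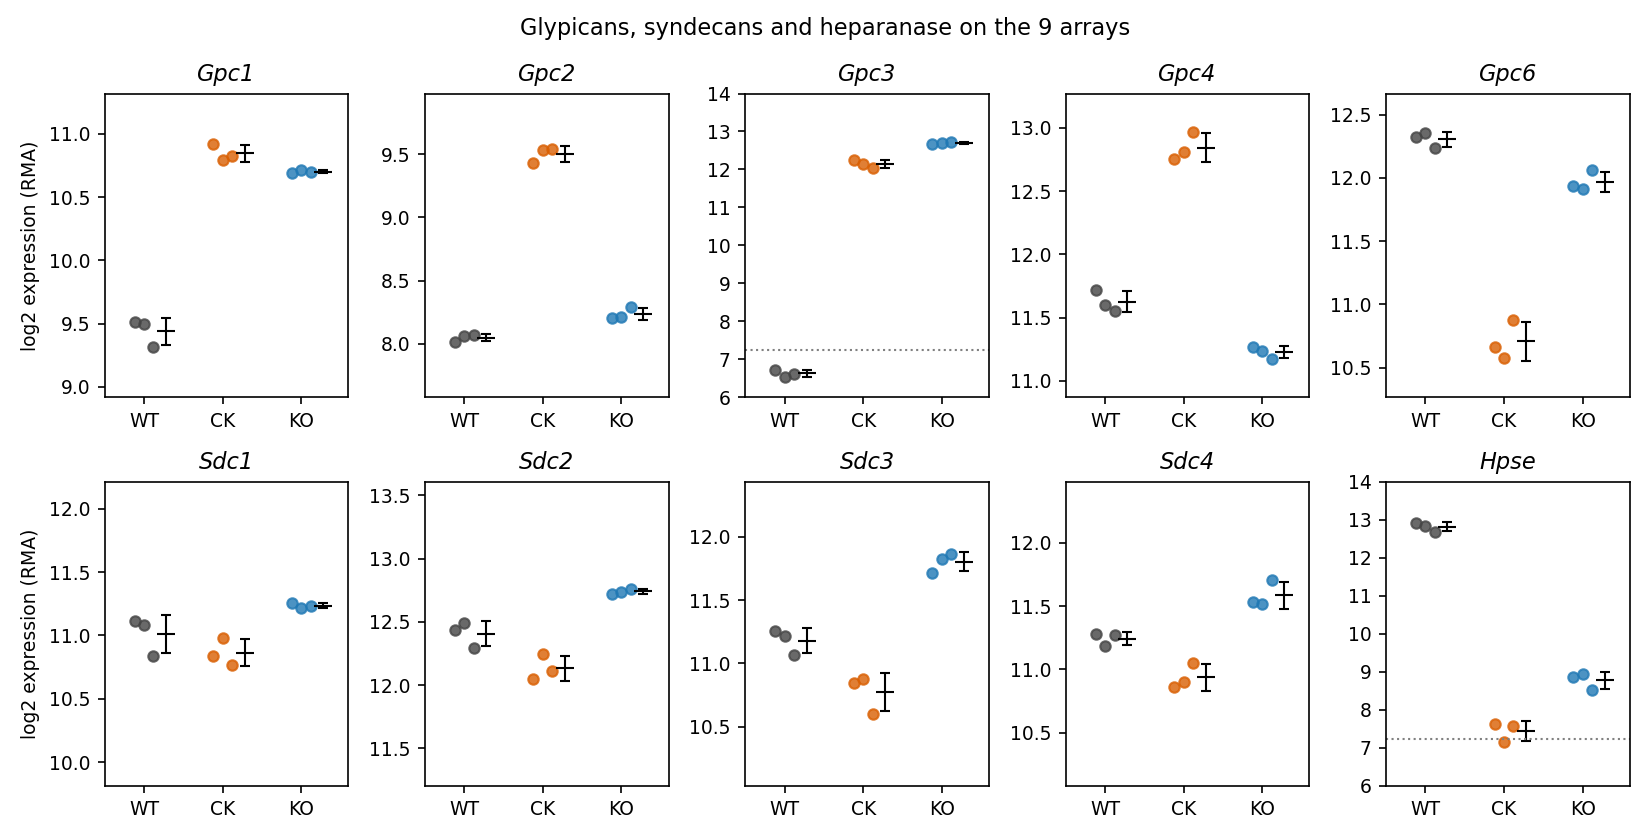
Log2 expression of the 10 genes on each array (points, 3 per genotype), with the mean and SD beside them as a bar. The axes of Gpc3 and Hpse run from 6 to 14 with the filter value of 7.24 as a dotted line, and the other axes each span 2.4 log2 units; Gpc3 rises from 6.62 in WT to 12.14 in CK and 12.69 in KO, Hpse falls from 12.82 to 7.45 and 8.77, and each syndecan is lowest in CK and highest in KO.

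Gpc3 and Gpc4 lie next to each other on the X chromosome, and their values took different courses. In GRCm38.p6 coordinates Gpc4 spans chrX:52051007-52164923 and Gpc3 chrX:52272426-52613974, 107.5 kb apart. Gpc4, which also binds Wnt and FGF ligands through its chains, read 11.72, 11.60 and 11.56 in WT, 12.75, 12.81 and 12.97 in CK, and 11.27, 11.24 and 11.17 in KO. The 3 groups did not overlap, with CK highest and KO lowest. Gpc4 rose in CK by 1.22 over WT (SE 0.07, limma adjusted p = 1.20e-07) and fell in KO (log2 difference -0.40, SE 0.07, adjusted p = 0.000709). CK exceeded KO by 1.62 (95% interval 1.46 to 1.77, adjusted p = 1.12e-08), so the mutants differed on Gpc4 in the opposite direction from Gpc3.

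Of the genes nearest to Gpc3 and Gpc4, only Hs6st2 and Mbnl3 were tested, and neither was higher in both mutants. Both lie on the Gpc4 side, 590.7 and 1066.4 kb from Gpc3, and no gene on the other side of Gpc3 was tested. Beyond Gpc4 lies Hs6st2, a heparan sulfate 6-O-sulfotransferase, at chrX:51386637-51681705. It read 10.39, 10.43 and 10.24 in WT, 9.84, 9.44 and 9.81 in CK, and 12.16, 12.41 and 12.02 in KO, so that KO was above and CK below every WT array. It rose in KO by 1.85 (SE 0.12, limma adjusted p = 4.96e-07) and fell in CK (log2 difference -0.65, SE 0.12, adjusted p = 0.000863). Mbnl3, an RNA-binding splicing regulator, did not pass the test in KO (-0.16, adjusted p = 0.0897) and was lower in CK (-0.36, adjusted p = 0.00142). The other nearest genes with a probe set, Usp26, 1700080O16Rik, Mir717, A630012P03Rik, Mir363 and Mir92-2, had group means between 5.13 and 6.13 and were below the filter on dim genes, so they were not tested. Mir717 and A630012P03Rik overlap the span of Gpc3 in the annotation. Mir717 read slightly higher in both mutants without overlap of arrays (5.13 in WT, 5.26 in CK and 5.27 in KO). Over the X chromosome, 99 of 362 tested genes were higher and 111 lower in KO than in WT, with a median of 0.03, where 26.6% of all tested genes were higher and 24.6% lower with a median of 0.01. In CK 159 were higher and 85 lower, with a median of 0.13, where 30.7% of all tested genes were higher and 32.1% lower with a median of -0.01. All 3 genotypes read high for Xist, the RNA of the inactive X chromosome (12.85 in WT, 12.11 in CK and 12.61 in KO), while the Y-linked genes Eif2s3y, Kdm5d and Uty had group means of 4.93 to 5.88.

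**Figure D2:**
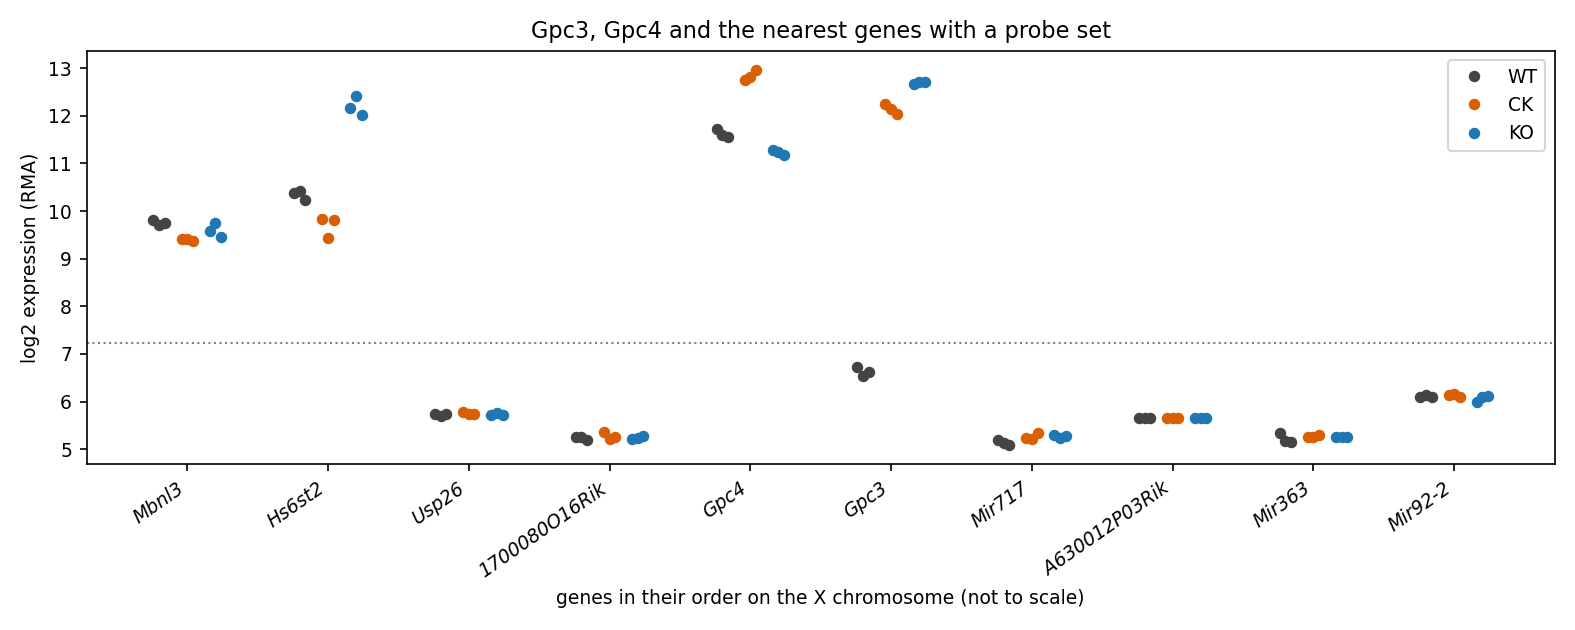
Log2 expression on each array (points, coloured by genotype) of Gpc3, Gpc4 and the nearest genes with a probe set, in chromosomal order and not to scale, with the filter value of 7.24 as a dotted line. Gpc3 is low only in WT, Gpc4 is highest in CK, Hs6st2 is highest in KO, and 6 neighbours stay between 5.13 and 6.13 in every group mean.

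The promoters of Gpc3 and Gpc4 are shown because these neighbours differed in course. Each is the RefSeq window of GRCm38.p6 from 250 bases before to 50 after the gene's start, on the minus strand, written 5′ to 3′ along the gene. Capitals mark promoter motifs found on either strand. The GC box was searched as GGGCGG, so that it reads as its complement where it lies on the other strand. The CCAAT box was searched by the letters of its name, and the TATA box was searched as TATAAA.
Gpc3, chrX:52613925-52614224: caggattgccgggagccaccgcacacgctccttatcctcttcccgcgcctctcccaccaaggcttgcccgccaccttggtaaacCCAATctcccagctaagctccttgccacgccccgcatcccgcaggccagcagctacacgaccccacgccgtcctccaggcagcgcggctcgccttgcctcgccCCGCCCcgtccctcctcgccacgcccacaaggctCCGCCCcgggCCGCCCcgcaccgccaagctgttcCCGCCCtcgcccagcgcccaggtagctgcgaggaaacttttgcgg
Gpc4, chrX:52164874-52165173: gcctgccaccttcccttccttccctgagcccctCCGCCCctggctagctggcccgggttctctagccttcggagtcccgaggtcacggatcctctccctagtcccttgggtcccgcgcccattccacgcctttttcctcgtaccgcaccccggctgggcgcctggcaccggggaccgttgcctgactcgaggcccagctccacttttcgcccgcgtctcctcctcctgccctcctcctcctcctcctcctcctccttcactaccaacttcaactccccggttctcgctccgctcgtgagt
The Gpc3 window had 4 GC boxes and 1 CCAAT box, 70.7% G and C, and 30 CpG dinucleotides. The Gpc4 window had 1 GC box, 66.7% G and C, and 22 CpG. Over all 32851 promoters of this length, 35.7% held a GC box, 37.4% a CCAAT box and 13.6% a TATA box, with medians of 52.7% G and C and 7 CpG. Neither window held an E-box (CACGTG, in 7.15% of promoters), an E2F motif (TTTGGCGC, 0.514%), a cell cycle homology region (TTTGAA, 17.9%), an AP-1 motif (TGANTCA, 7.81%) or a GLI motif (GACCACCCA, 0.253%), which says only that these letters are not in these windows. No matches overlapped one another.

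The remaining glypicans went in different directions. Gpc1, a widely expressed glypican that takes part in FGF signalling, read 9.51, 9.49 and 9.32 in WT, 10.92, 10.80 and 10.82 in CK, and 10.69, 10.72 and 10.70 in KO. Every mutant array was above every WT array. Gpc1 rose by 1.26 in KO (95% interval 1.12 to 1.40, limma adjusted p = 5.40e-08) and by 1.41 in CK (1.26 to 1.55, adjusted p = 2.21e-08). The CK arrays lay just above those of KO, but the difference of 0.14 (SE 0.06) did not pass the test (adjusted p = 0.0716). It did pass without WT replicate 3 (adjusted p = 0.0337).

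Gpc2, best known from the developing nervous system, changed mainly in CK. It read 8.02, 8.06 and 8.07 in WT, 9.43, 9.54 and 9.54 in CK, and 8.21, 8.21 and 8.30 in KO. The groups did not overlap, but KO was much nearer to WT than CK was. Gpc2 rose by 1.45 in CK (SE 0.05, limma adjusted p = 4.39e-09) and by 0.19 in KO (SE 0.05, adjusted p = 0.0126). The mutants differed by 1.26 (95% interval 1.15 to 1.38, adjusted p = 9.76e-09).

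Gpc6, a glypican of mesenchymal tissues that is needed for growth plate cartilage, was the glypican that fell in both mutants. It read 12.32, 12.36 and 12.24 in WT, 10.67, 10.58 and 10.88 in CK, and 11.94, 11.91 and 12.06 in KO, with no overlap between groups. It fell in CK (log2 difference -1.60, SE 0.08, limma adjusted p = 4.68e-08) and less in KO (-0.34, SE 0.08, adjusted p = 0.00516). CK was below KO by a log2 difference of -1.26 (95% interval -1.44 to -1.08, adjusted p = 2.37e-07). Gpc5, a glypican outside the chosen genes and named after its values were seen, had group means of 6.34 (WT), 6.35 (CK) and 6.36 (KO) and was too dim to be tested.

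All 4 syndecans were ordered alike, with CK lowest, WT between and KO highest. This order of group means held for 20.8% of all tested genes, and the order without any overlap of arrays for 7.35% of them and for Sdc2, Sdc3 and Sdc4. The median over the syndecans was 0.34 in KO versus WT and -0.29 in CK versus WT, beside 0.01 and -0.01 over all tested genes. Against WT every step was under 1.5-fold except the rise of Sdc3 in KO (1.54-fold). The averages of the chondrocyte markers had the same order, with a smaller step between CK and WT once Cnmd was left out, and their part in the syndecan values was not tested.

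Sdc3, which is known from nerve and muscle and has the longest ectodomain of the family, had the widest spread of the 4. It read 11.26, 11.21 and 11.07 in WT, 10.84, 10.87 and 10.60 in CK, and 11.72, 11.83 and 11.87 in KO. The groups did not overlap. Sdc3 rose in KO by 0.62 (SE 0.08, limma adjusted p = 0.000112) and fell in CK (-0.41, SE 0.08, adjusted p = 0.00148). Between the mutants CK was lower by a log2 difference of -1.03 (95% interval -1.22 to -0.85, adjusted p = 1.58e-06), a 2.05-fold difference.

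Sdc4, the syndecan of focal adhesions, read 11.28, 11.18 and 11.27 in WT, 10.86, 10.90 and 11.05 in CK, and 11.54, 11.51 and 11.70 in KO. It rose in KO by 0.34 and fell in CK (-0.31), each with an SE of 0.07 (limma adjusted p = 0.00240 and 0.00334). Sdc2, the fibroblast syndecan also called fibroglycan, read 12.43, 12.49 and 12.30 in WT, 12.05, 12.24 and 12.11 in CK, and 12.72, 12.73 and 12.76 in KO. Neither gene had overlapping groups. Sdc2 rose in KO by 0.33 and fell in CK (-0.27), each with an SE of 0.07 (adjusted p = 0.00192 and 0.00488). CK was below KO by log2 differences of -0.65 for Sdc4 (adjusted p = 1.77e-05) and -0.61 for Sdc2 (adjusted p = 1.91e-05).

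Sdc1, the main syndecan of epithelia and plasma cells, had the smallest steps of the syndecans. It read 11.11, 11.08 and 10.84 in WT, 10.84, 10.98 and 10.77 in CK, and 11.26, 11.22 and 11.23 in KO. KO lay above both other groups, while WT and CK overlapped. The rise in KO was 0.23 (SE 0.08, limma adjusted p = 0.0366), and it no longer passed the test without WT replicate 3 (0.14, adjusted p = 0.126) or without KO replicate 1, 2 or 3 (adjusted p = 0.0979, 0.0692 and 0.0688). The difference of CK from WT did not pass (-0.15, 95% interval -0.33 to 0.03, adjusted p = 0.138), but it did without WT replicate 3 (-0.23, adjusted p = 0.0153) and with array weights (adjusted p = 0.0489). CK was below KO (-0.37, adjusted p = 0.00209).

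The promoters of the syndecans found in the RefSeq table are shown because these genes were ordered alike. Sdc1 and Sdc3 are on the plus strand and Sdc4 on the minus strand, with capitals as above.
Sdc1, chr12:8771146-8771445: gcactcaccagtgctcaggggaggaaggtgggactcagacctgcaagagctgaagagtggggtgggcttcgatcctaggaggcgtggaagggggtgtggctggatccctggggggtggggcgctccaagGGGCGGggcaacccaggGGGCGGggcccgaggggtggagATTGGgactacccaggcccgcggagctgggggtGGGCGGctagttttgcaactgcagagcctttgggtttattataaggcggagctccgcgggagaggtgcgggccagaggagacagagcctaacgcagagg
Sdc3, chr4:130792287-130792586: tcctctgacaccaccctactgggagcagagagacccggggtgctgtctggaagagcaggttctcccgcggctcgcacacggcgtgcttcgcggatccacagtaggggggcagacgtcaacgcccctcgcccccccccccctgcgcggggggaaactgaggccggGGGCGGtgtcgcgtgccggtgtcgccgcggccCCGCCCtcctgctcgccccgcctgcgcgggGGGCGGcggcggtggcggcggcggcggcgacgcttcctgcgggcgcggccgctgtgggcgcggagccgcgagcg
Sdc4, chr2:164443139-164443438: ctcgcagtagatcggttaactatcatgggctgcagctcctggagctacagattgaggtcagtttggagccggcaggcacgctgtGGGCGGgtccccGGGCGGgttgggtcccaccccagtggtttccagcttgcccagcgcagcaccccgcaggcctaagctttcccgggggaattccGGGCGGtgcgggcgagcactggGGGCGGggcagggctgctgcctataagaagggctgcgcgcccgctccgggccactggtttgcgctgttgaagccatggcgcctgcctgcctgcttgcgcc
GC boxes numbered 3 in Sdc1, 3 in Sdc3 and 4 in Sdc4, and Sdc1 also had 1 CCAAT box. The Sdc3 window was 77.7% G and C with 44 CpG, more than 97.8% of all promoters. Sdc1 had 14 CpG and Sdc4 had 22. None of the E-box, E2F, cell cycle homology region, AP-1 and GLI letters was found in these windows.

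Hpse had the deepest fall of the 10 genes. It read 12.92, 12.85 and 12.68 in WT, 7.63, 7.14 and 7.57 in CK, and 8.86, 8.94 and 8.52 in KO. The CK arrays lay around the filter value of 7.24 and the KO arrays above it, all far below WT. The difference from WT was -5.37 in CK and -4.04 in KO (SE 0.14 each), or 41.4-fold and 16.5-fold by the measured values. Its fall in CK was known when the genes were chosen, and both comparisons share the WT arrays, so these are a description with no test. CK was lower than KO by a log2 difference of -1.33 (95% interval -1.64 to -1.01, limma adjusted p = 1.30e-05) with the CK arrays near the filter value. The low CK values were known when the genes were chosen, so this difference between the mutants is not independent of the choice. The promoter of Hpse, the gene that fell most among the 10 in both mutants, is on the minus strand.
Hpse, chr5:100719667-100719966: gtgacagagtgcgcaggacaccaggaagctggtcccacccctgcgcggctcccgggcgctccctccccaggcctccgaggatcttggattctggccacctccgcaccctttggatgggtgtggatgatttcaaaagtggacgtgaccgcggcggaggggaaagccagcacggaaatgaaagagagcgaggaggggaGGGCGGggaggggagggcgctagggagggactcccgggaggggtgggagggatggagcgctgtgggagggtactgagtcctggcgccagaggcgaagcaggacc
It held 1 GC box, 67.0% G and C, 19 CpG and 1 cell cycle homology region motif, which is not in capitals.

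A call means a limma p under 0.05 after Benjamini-Hochberg adjustment over 11962 genes. In KO versus WT 7 of the 10 genes were called higher and 3 lower, where 51.2% of all tested genes were called (26.6% higher and 24.6% lower). In CK versus WT 4 were called higher and 5 lower, where 62.9% of genes were called (30.7% higher and 32.1% lower). Both counts include Gpc3 and Hpse, and without these 8 of 8 and 7 of 8 were called. In CK versus KO 2 were called higher and 7 lower, where 62.2% were called (29.5% higher and 32.7% lower). Without Gpc3 and Hpse 2 were called higher and 5 lower of 8. With calls this common, counts say little about these genes. Without Gpc3 and Hpse, the median absolute difference of the other 8 was 0.34 in KO versus WT, beside 0.20 over all tested genes. It was 0.81 in CK versus WT and 0.84 in CK versus KO, each beside 0.28. All 10 passed the filter on dim genes, Gpc3 through its mutant arrays and Hpse mainly through WT. Arrays did not overlap for 10 of the 10 genes in KO versus WT (60.9% of all tested genes), 9 in CK versus WT (67.3%) and 10 in CK versus KO (67.5%). Without Gpc3 and Hpse these counts were 8, 7 and 8 of 8. All 3 genotypes were free of overlap for 9 of the 10 genes, Gpc3 and Hpse included, and for 34.7% of all tested genes.

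**Figure D3:**
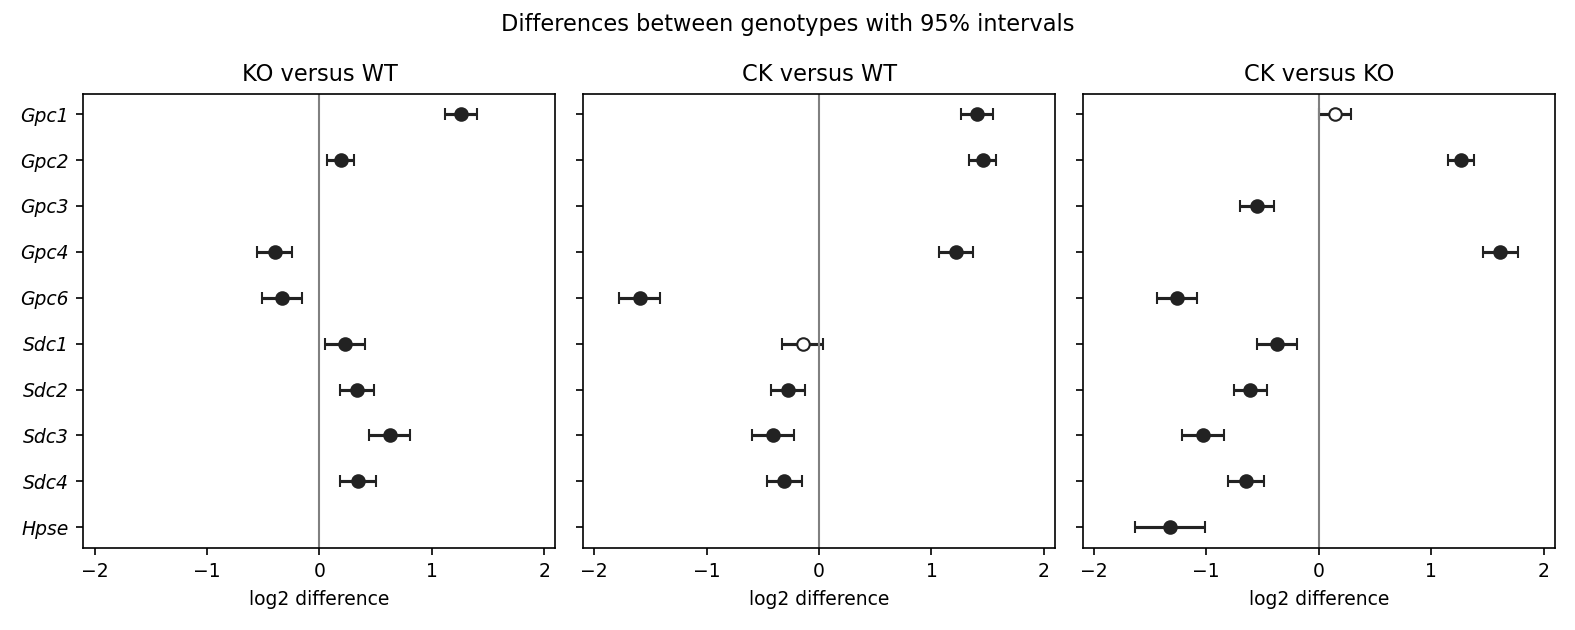
Log2 differences (points) with 95% intervals (bars, not adjusted for the number of genes) in the 3 comparisons; filled points passed limma at an adjusted p under 0.05 and open ones did not. Gpc3 and Hpse are left out against WT, where they set the choice of genes; the 4 syndecans are above 0 in KO versus WT and below 0 in CK versus WT, where Sdc1 did not pass, while the glypicans take both signs.

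By the root mean square difference over the 9 arrays of values taken relative to each gene's WT mean, the profiles nearest to Gpc3 were those of Dhrs9, a retinol dehydrogenase family member (0.97), Mab21l2 (1.28), the adhesion receptor Adgrg6 (1.49), the calcium-binding protein Gca (1.62) and Serpinb9b, a serpin protease inhibitor (1.80). Dhrs9 rose by 5.64 in KO and 3.90 in CK, so that its distance from Gpc3 lay mostly in CK. No other glypican or syndecan was among them. The differences were not scaled, so only genes with rises of a size like that of Gpc3 could be near.

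Genes of the enzymes that build, modify and break the chains, and of partner proteins, are given as lists. In each, medians are log2 differences, beside medians over all tested genes of 0.01 in KO versus WT, -0.01 in CK versus WT and -0.02 in CK versus KO. The counts stand beside the shares over all tested genes of 26.6% higher and 24.6% lower in KO versus WT, 30.7% and 32.1% in CK versus WT, and 29.5% and 32.7% in CK versus KO. With lists this short, a count near those shares is no result about the list. All 17 genes of chain synthesis with a probe set were tested, and 5 were called higher and 3 lower in KO, 4 higher and 7 lower in CK, and 1 higher and 9 lower in CK versus KO (medians 0.18, -0.07 and -0.28). Ext1, a subunit of the polymerase that extends heparan sulfate, fell in KO (12.12 in WT to 10.93, limma adjusted p = 2.05e-08) and was higher in CK than in KO by 1.40 (adjusted p = 4.16e-09). Xylt1, which adds the first sugar to the core protein, rose by 1.11 both in CK (adjusted p = 6.35e-06) and in KO (adjusted p = 8.81e-06). Extl1 rose in KO by 1.72 (adjusted p = 1.16e-06), from a WT mean of 7.15 that is below the filter value. Papss1 and Papss2 make the sulfate donor for all sulfotransferases. Papss1 rose in KO by 1.18 (adjusted p = 5.66e-06), and Papss2 fell in CK (-1.18, adjusted p = 1.51e-06), where it was below KO as well (-1.62). Fam20b, the kinase that phosphorylates the linker xylose, was lower in CK than in KO (-1.22, adjusted p = 5.36e-06).

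Among tested genes that modify the chains, the 3 smallest p between the mutants belonged to Sulf1, Hs6st2 and Sulf2, which act on 6-O-sulfate groups. Of 17 modification genes with a probe set 11 were tested. Hs3st1, named after its values were seen, was too dim on average to be tested, but its mutant arrays did not overlap (8.08 in CK and 6.27 in KO). In KO 2 were called higher and 2 lower, in CK 3 and 3, and in CK versus KO 4 higher and 3 lower (medians 0.00, -0.04 and 0.00), with 1 lower in CK versus WT when WT replicate 2 was left out. Sulf1 and Sulf2 encode secreted sulfatases that remove 6-O-sulfate groups. Sulf1 rose in KO from 11.16 to 12.60 (limma adjusted p = 1.29e-08), and Sulf2 rose in CK from 10.37 to 11.91 (adjusted p = 6.39e-07). The mutants differed on both, with CK minus KO at -1.30 for Sulf1 (adjusted p = 1.89e-08) and 1.71 for Sulf2 (adjusted p = 2.40e-07). Hs6st1 fell in KO (-0.76, adjusted p = 5.32e-05), where Hs6st2 rose. Glce, the epimerase that forms iduronic acid, and Hs2st1, which sulfates it, rose in CK by 1.15 (adjusted p = 1.15e-06) and 0.82 (adjusted p = 4.96e-05).

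Of 7 tested lysosomal genes of chain breakdown 0 were called higher and 4 lower in CK versus WT, 0 and 5 in CK versus KO, and 2 and 2 in KO versus WT, with medians of -0.16, -0.31 and 0.11. The 2 lower in KO became 1 without WT replicate 1 or 3, CK replicate 2 or KO replicate 1, 2 or 3. At an unadjusted p under 0.05 limma gave 0 and 0 higher in CK for the same comparisons. Ids, iduronate sulfatase, rose in KO by 1.04 (limma adjusted p = 7.17e-08) and fell in CK (-0.54, adjusted p = 8.40e-06). Sgsh and Idua, a sulfamidase and the iduronidase, fell in CK (-0.71, adjusted p = 4.20e-05, and -0.57, adjusted p = 7.08e-05).

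**Figure D4:**
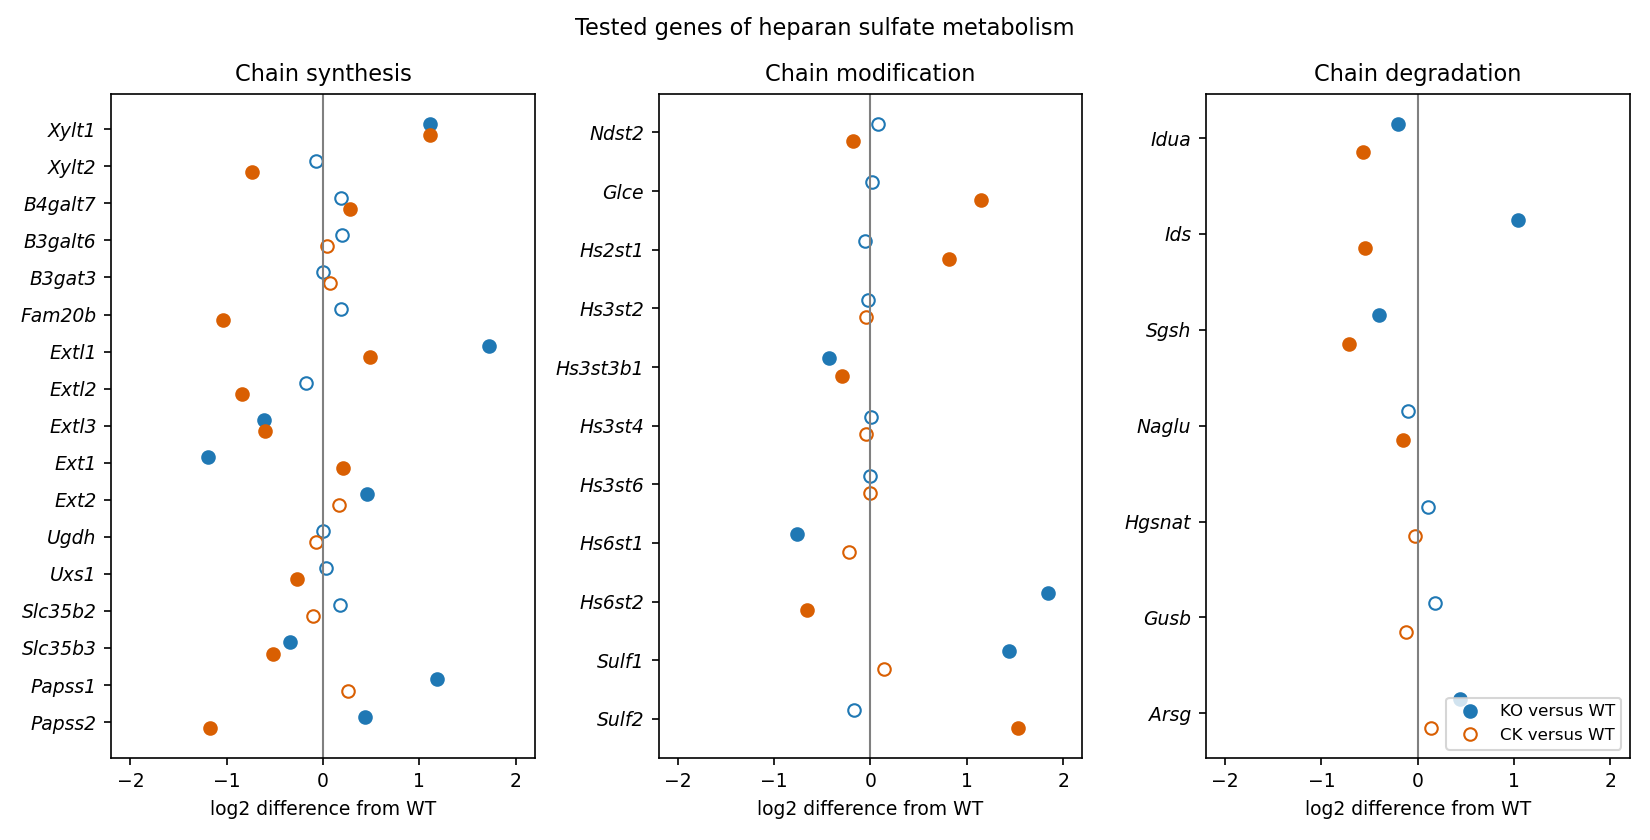
Log2 differences from WT of each tested gene of heparan sulfate synthesis, modification and degradation, in KO (blue) and CK (orange); filled points passed limma at an adjusted p under 0.05, and both comparisons share the WT arrays. Hs6st2 and Sulf1 lie furthest to the right in KO and Sulf2 and Glce in CK among the modification genes.

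Of 12 tested genes of core protein release, which are proteases, lipases and the protease inhibitor Timp3, 3 were called higher and 6 lower in KO, 3 and 9 in CK, and 5 and 4 in CK versus KO (medians -0.23, -0.32 and 0.10). The 5 higher in CK versus KO became 3 without CK replicate 3, KO replicate 1 or KO replicate 2. Timp3, named after its values were seen, is among those lower in KO and in CK. Pcsk5, a proprotein convertase whose CK mean of 6.93 is below the filter value, fell in KO (-2.11, limma adjusted p = 4.17e-09) and in CK (-2.45, adjusted p = 1.30e-09). Mmp9 and Mmp14 can shed syndecan ectodomains. Mmp9 fell in KO (-3.36, adjusted p = 1.94e-10) and in CK (-1.46, adjusted p = 8.87e-08), while Mmp14 fell in KO (-1.35, adjusted p = 1.30e-07) and was higher in CK than in KO by 1.78 (adjusted p = 1.09e-08).

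A further list held matrix heparan sulfate proteoglycans and proteins that carry the chain only part of the time. It gave 3 genes higher and 6 lower of 9 tested in KO, 3 and 4 in CK, and 7 and 1 in CK versus KO (medians -0.93, -0.07 and 1.19). Agrin (Agrn) and perlecan (Hspg2), matrix proteoglycans of basement membranes, rose in CK by 2.17 (limma adjusted p = 1.56e-09) and 1.70 (adjusted p = 4.08e-08). The 3 KO arrays gave 1 and the same value for Hspg2. Col18a1, a basement membrane collagen with heparan sulfate chains, fell in KO from 10.82 to 7.66 (adjusted p = 1.19e-10). Srgn, the intracellular proteoglycan serglycin, fell in KO (-3.36, adjusted p = 3.85e-09) and in CK (-3.21, adjusted p = 4.84e-09).

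Partners of the syndecan tail gave 7 genes higher and 3 lower of 14 tested in KO, 8 and 1 in CK, and 5 and 5 in CK versus KO (medians 0.17, 0.23 and -0.07). The count of 1 became 2 without CK replicate 2, CK replicate 3 or KO replicate 2, and the 5 lower in CK versus KO became 2 without KO replicate 1 and 3 without CK replicate 2 or 3 or KO replicate 2 or 3. Cask, a scaffold that binds the end of the tail, fell in KO (-1.33, limma adjusted p = 1.23e-07) and was higher in CK than in KO by 1.70 (adjusted p = 1.29e-08). Tiam1, an activator of the GTPase Rac that binds Sdc1, rose in CK by 1.31 (adjusted p = 4.34e-06) and in KO by 0.68 (adjusted p = 0.000752). Sdcbp, the gene of the tail-binding protein syntenin, rose in KO by 0.36 (adjusted p = 0.000120). Ezr, which ties membrane proteins to actin, fell in both, by log2 differences of -0.66 in KO (adjusted p = 2.53e-06) and -0.82 in CK (adjusted p = 3.42e-07).

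In the hedgehog pathway, which glypican-3 is known to limit, 2 of 11 tested genes were called higher and 2 lower in KO, 1 and 6 in CK, and 1 and 7 in CK versus KO (medians 0.01, -0.31 and -0.25). The 2 lower in KO became 1 without WT replicate 1 or 2 or KO replicate 1 or 3. Ptch1, the hedgehog receptor and a transcriptional target of the pathway, rose in KO from 9.15 to 11.17 (limma adjusted p = 5.89e-10) and in CK to 10.16 (adjusted p = 9.98e-08). Gli1, another target, was named after its values were seen. It did not pass limma in KO (7.49 against 7.48 in WT, adjusted p = 0.945) or in CK (7.53, adjusted p = 0.406). Its group means lie just above the filter value and may be limited by background. The absence of a call therefore does not show that Gli1 RNA was unchanged. Smo, the signal transducer, rose in KO by 0.29 (adjusted p = 0.00181) and fell in CK (-0.68, adjusted p = 2.98e-06). Boc, a hedgehog co-receptor, fell in CK (-2.45, adjusted p = 9.27e-10) and slightly in KO (-0.21, adjusted p = 0.0287). Hhip, an inhibitor that binds hedgehog ligands and is itself a target, fell in KO (-1.34, SE 0.30, adjusted p = 0.00334), to a mean of 6.79 that is below the filter value.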

How the data were processed

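RNA from MEFs was measured on 9 arrays, 3 per genotype. The authors deposited log2 expression values for 34760 probe sets from RMA (affy package), per the submitters' processing notes. Tool versions, probe annotation and filters are not given in the sources used here. RMA applies quantile normalization, so a change in total RNA per cell would not be seen, and the table has no detection calls. The deposited log2 strings had lost their decimal mark. It was put back after the leading 2 digits of strings beginning with 1 and after the leading digit otherwise, for a range of 4.28 to 14.4. Where the arrays of a group straddled 10 (2242 cases), their median range was 0.263 with the mark restored this way, 8.92 otherwise, and 0.133 in the remaining cases.

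Of the probe sets, 21640 carry a single symbol in the platform annotation, 1321 carry several and 11799 carry none. Identifiers of 21553 were found in a RefSeq table of GRCm38.p6, which gave symbols, coordinates and neighbours. Of the 10 genes 7 have a promoter there, and the CpG, motif and base counts were made from it. For each gene the brightest probe set was used, and genes with a mean of 7.24 or more, the 40th percentile, were tested.

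All 9 arrays entered a single limma fit (limma 3.58.1, R 4.3.3 with 6 residual and 4.1 prior degrees of freedom). Within WT the median SD was 0.0709, within CK 0.0849 and within KO 0.0673. The number of arrays limits the precision. Tested on simulated data (KO versus WT, 11962 genes), the fit recovered 20% of 50 genes shifted by 0.25 and 80% at a shift of 0.5. It recovered 100% at shifts of 1 and 2, and called 4 unchanged genes. Only these few genes were shifted, in KO alone, whereas in the data 51.2% of genes were called in KO versus WT. The adjusted p depends on that share, so these figures need not hold for the data. The 10 genes and all lists (heparan sulfate synthesis, modification, degradation, core protein release, other proteoglycans, syndecan tail partners, hedgehog, ligands and FGF receptors, cell type and sex markers) were chosen with earlier results of these data known. Named are the 10 genes, Cdkn1b, at most 4 genes per list and comparison with the smallest p, the nearest neighbours of Gpc3 and Gpc4 with a probe set (4 on each side of each), and the 5 profiles nearest to Gpc3. Hpse is given without a p in both comparisons with WT, one more than planned. Marker averages over a list were at most 6.55 on any array for muscle, 7.26 for endothelial, 7.16 for macrophage, 7.13 for epithelial and 7.08 for neural cells. These averages hide brighter single markers. The macrophage marker Cd68 averaged 10.64 in WT, 8.59 in CK and 7.99 in KO, while Lyz2 averaged 6.90, 7.59 and 8.83. The neural marker Map2 averaged 10.57, 9.35 and 7.63, and the endothelial marker Tek 8.77, 6.51 and 6.80. Alternatives covered the dim filter, probe sets, normalization, variances, weights, thresholds, a replicate block and leaving out each array.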

Additional observations from a re-analysis of the deposited data

How the results depend on the processing

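No difference of the 10 genes changed direction under any alternative. Of the 657 values of single genes under an alternative, 633 counted as unchanged, 19 lost the call and 5 gained it. Unchanged means on the same side of the threshold. For Gpc3 and Hpse against WT, which have no test, it means a difference that moved by less than the gene's residual SD. Requiring at least 1.5-fold left 4 of the 10 genes in KO versus WT. They were Gpc1, Sdc3, and Gpc3 and Hpse, which are given against WT without a test. Of all genes it left 2155 in KO versus WT, 3025 in CK versus WT and 3078 in CK versus KO. In KO versus WT Sdc1 was not called with no filter on dim genes (adjusted p = 0.0522) or a further quantile normalization (0.0547), and Gpc2 (0.0126) and Sdc1 (0.0366) missed an adjusted p under 0.01. Array weights called Sdc1 in CK versus WT (0.0489) and Gpc1 in CK versus KO (0.0280), as the fit of 6 arrays did for the latter (0.0487). Leaving out 1 array gave 9 to 10 called genes of the 10 in each comparison, Gpc3 and Hpse included. Of 1056 list counts under an alternative, 69 moved by over 1.5 times, most of them counts of 1 to 5 genes. No filter on dim genes raised the modification genes lower in KO from 2 to 6. The replicate number as a block changed no call of the 10 genes and gave 5979, 7377 and 7291 called genes. Same-numbered arrays did not deviate together (correlations -0.303 to 0.361, and 4 of 18 best matches with the own number), so the numbers are not taken as pairs. Values near 7 such as Gpc3 in WT and Hpse in CK may be limited by background, which is unknown without detection calls.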

Other observations

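Ligands that bind heparan sulfate, and the FGF receptors that use it as a co-factor, were measured beside the proteoglycans. Of 20 tested genes 5 were called higher and 12 lower in KO, 6 and 13 in CK, and 11 and 7 in CK versus KO (median log2 differences -1.07, -0.30 and 0.69). Over all tested genes 51.2% were called in KO versus WT, 62.9% in CK versus WT and 62.2% in CK versus KO. Fgf10, an FGF of mesenchyme, fell in KO from 10.65 to 6.94 (limma adjusted p = 3.09e-11) and in CK to 8.42 (adjusted p = 1.20e-09), where the KO mean is below the filter value of 7.24. Fgf7 fell in CK (-2.38, adjusted p = 2.85e-09). Slit2, a guidance ligand that binds Gpc1, fell in KO (-3.19, adjusted p = 2.85e-11), while Slit3 rose in CK by 2.04 (adjusted p = 4.48e-08). Hgf, the ligand of the Met receptor, was higher in CK than in KO by 4.27 (adjusted p = 3.34e-10). The KO mean of 6.11 for Hgf is below the filter value, so the size of that difference may be limited by background. The 3 WT arrays gave 1 and the same value for Hgf. Fgf18 and its receptor gene Fgfr3, both active in cartilage, were lower in CK than in KO by log2 differences of -3.81 (adjusted p = 4.00e-09) and -2.48 (adjusted p = 4.06e-09). The chondrocyte markers were also lower in CK than in KO, and their part in these values was not tested.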
